A study of Mus musculus with 32 samples.

Results

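The genes described here are 39 antiviral genes that type I interferon is known to induce. They were taken from a list of gene names, and all 39 were found among the 33654 genes of each table used. The list was chosen with earlier results of these data known. Shares of members beside those of all genes are therefore descriptions and not tests. The study profiled RNA in 32 mouse libraries, of CD8 T cells or tumor cells, held in 4 tables. The tumor cells are given as breast cancer cells of the MMTV-PyMT model, in which a mammary tumor virus promoter drives the polyoma virus middle T oncogene in mammary epithelium. In a time course, tumor cells were taken in week 2 of tumor growth (n = 3), a week later (n = 4) and in week 4 (n = 4), and CD8 T cells from tumors at the same weeks (n = 3 each). In a hairpin set, tumor cells and CD8 T cells came from xenografts labelled shCTRL (genotype WT, n = 3 of each cell type) or shMogat1 (genotype Mogat1 knockdown, n = 3 of each). The CD8 T cells carry the same genotype labels as the tumor cells, and the week at which the hairpin set was taken is not given. Strain, age, host, number of hairpin clones and the animals behind each replicate are also not given, so p-values measure only the spread between these samples, which may be technical.

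Cells that meet type I interferon switch on these genes through a complex that holds STAT2 and IRF9 and binds a short DNA element, the interferon-stimulated response element. Their products sense viral RNA, degrade or sequester it, block translation, hold budding virions or act as brakes on the response. In tumors the same program is also known to run in cancer cells and infiltrating leukocytes without infection, and many of these genes answer to interferon gamma too.

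The response element's core was searched in the promoters. The members were listed as genes that type I interferon is known to induce. A high share with the element therefore follows from the list and says nothing about the changes in these data. RefSeq promoter windows of build GRCm38.p6, 250 bases before to 50 bases after a gene's start, were matched for 29 of the 39 members. The motif GAAANNGAAA was searched on both strands (TTTCNNTTTC on the other), and overlapping matches were each counted. It was present in 14 of the 29 members (48.3%) and in 1079 of all 27025 genes with a window (3.99%). At least 2 matches in a window were found for 7 members and for 72 of all genes. A match describes letters and not binding. Members without a match also fell strongly in tumor cells from week 2 to week 4, such as Irf7 (-2.71), Oasl1 (-2.54) and Ifi44 (-2.39, log2 scale). Ifih1 (-0.91), Eif2ak2 (-0.87) and Ddx58 (-0.65) had smaller falls and a match each. The stretches below, with matches in capitals and in the gene's own direction, come from 7 members with large falls in tumor cells, between -3.79 (Ifit3b) and -1.79 (Oas1g) on the log2 scale from week 2 to week 4, and from Isg15, which was barely detected and not tested. They lie before the start at chr19:34640765-34640833 (Ifit1, plus strand), chr19:34583353-34583436 (Ifit3, plus), chr19:34607749-34607832 (Ifit3b, plus), chr5:120907526-120907565 (Oas1a, minus), chr5:120887614-120887651 (Oas1g, minus), chr12:26456543-26456592 (Rsad2, minus), chr8:71537567-71537622 (Bst2, minus) and chr4:156200855-156200916 (Isg15, minus).
Ifit1: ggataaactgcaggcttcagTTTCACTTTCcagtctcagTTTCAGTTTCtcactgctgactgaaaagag
Ifit3: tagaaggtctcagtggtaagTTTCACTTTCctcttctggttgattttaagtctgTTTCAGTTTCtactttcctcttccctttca
Ifit3b: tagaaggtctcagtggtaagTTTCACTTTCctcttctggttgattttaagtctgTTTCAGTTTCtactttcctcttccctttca
Oas1a: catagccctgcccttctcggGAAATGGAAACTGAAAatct
Oas1g: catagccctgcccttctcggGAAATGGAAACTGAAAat
Rsad2: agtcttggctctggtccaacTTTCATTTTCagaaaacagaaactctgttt
Bst2: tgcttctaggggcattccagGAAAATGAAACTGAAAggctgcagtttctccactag
Isg15: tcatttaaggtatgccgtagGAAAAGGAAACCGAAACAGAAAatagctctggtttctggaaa

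The Ifit3 and Ifit3b stretches did not differ over 84 bases, and those of Oas1a and Oas1g did not differ over 38. These pairs are also alike in their transcripts: 51.2% of the 50-base words of Ifit3 also occur in Ifit3b, and 57.6% of those of Oas1a in Oas1g (GENCODE M21, GRCm38). How the authors' counting treated shared reads is not given, so the split of reads within each pair is uncertain. The Ifit genes lie together on chromosome 19, the 7 Oas and Oasl genes on chromosome 5, and Mx1, Mx2, Parp9, Dtx3l, Parp14 and Rtp4 on chromosome 16. Parp9 and Dtx3l overlap by 682 bases on opposite strands. Herc6 (23.8% of its words in Gm45193) and Rtp4 (13.6% in Gm45338) share sequence with transcripts on their own strand.

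Levels are given in TPM, a share of all transcripts that corrects for gene length and library total and carries no read depth. In the time course, epithelial Epcam was 249 to 384, 389 to 513 and 475 to 567 TPM in tumor cells of weeks 2, 3 and 4. Cd8a was 673 to 1173 TPM in CD8 T cells. Tumor cell libraries of week 2 also held fibroblast markers at a summed 1532 to 5632 TPM, above the epithelial sum of 1016 to 1344. Fibroblast Dcn alone was at 1322 to 5120 TPM there. The fibroblast sum was the higher in some tumor cell libraries of weeks 3 and 4 as well. In the hairpin set, tumor cell libraries labelled shCTRL had Epcam at 0.56 to 0.864 TPM against 28.4 to 30.8 in those labelled shMogat1. Among tumor cells of week 2, replicate 3 had the lowest level of 33 of the 38 members tested, and among CD8 T cells of week 3, replicate 4 had the lowest level of 31.

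**Figure D1:**
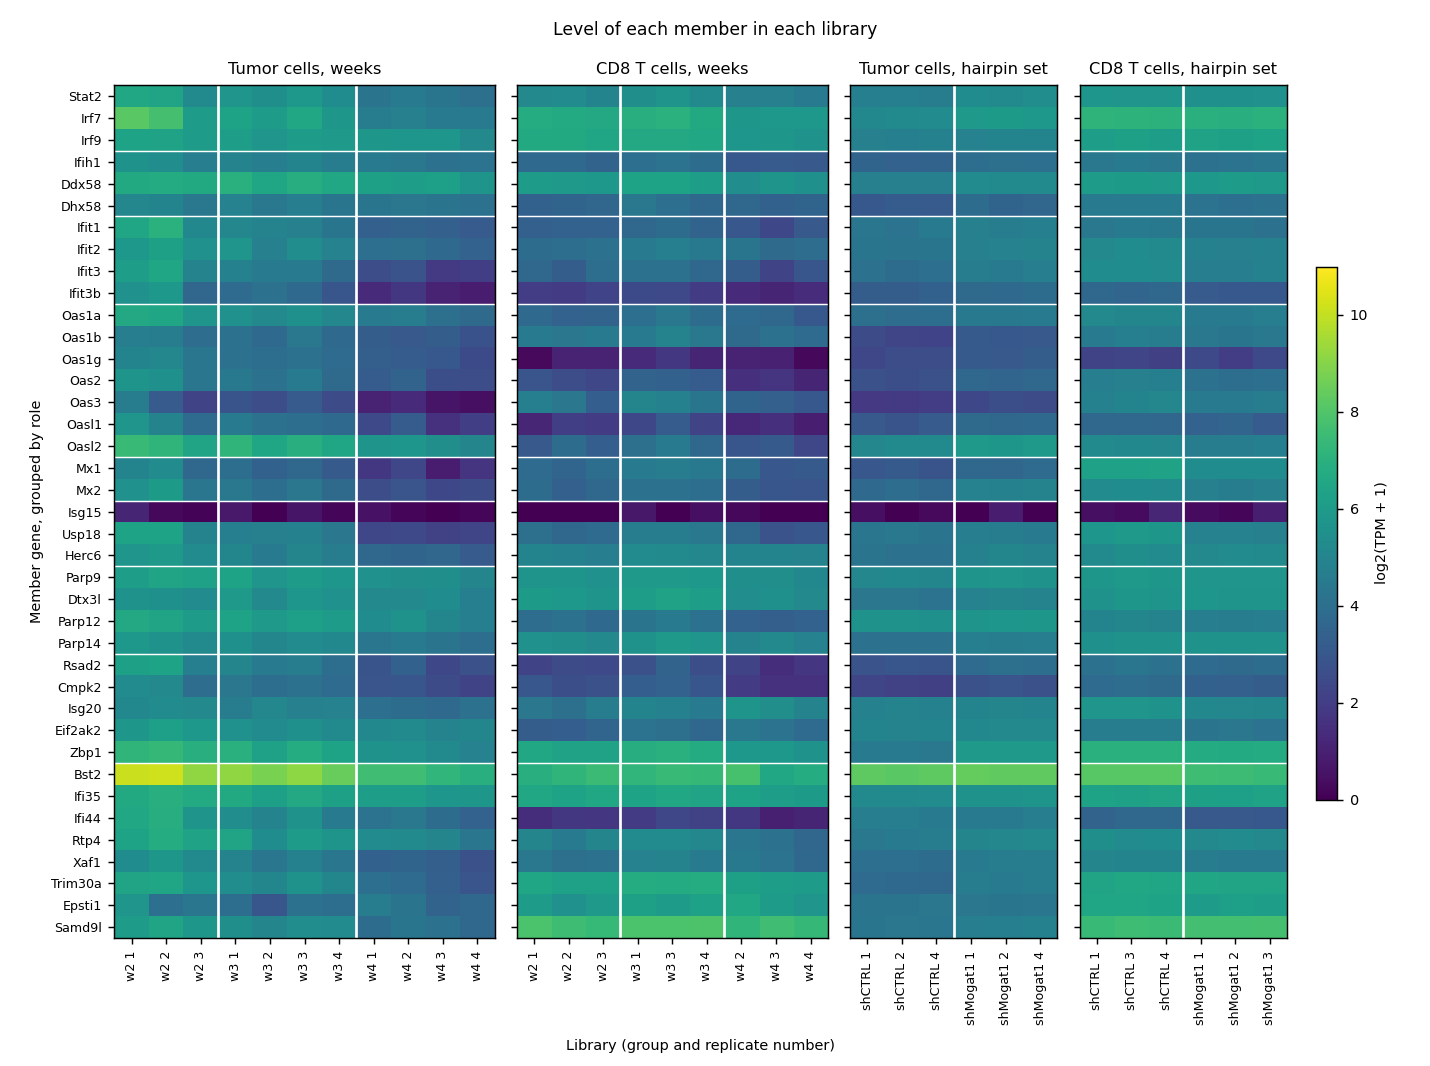
Level of each of the 39 members (rows, grouped by role) in each of the 32 libraries (columns, by group and replicate), as log2(TPM + 1) on a colour scale from 0 to 11. Rows of the tumor cell panel darken from week 2 to week 4, Bst2 is the brightest row there, and Isg15 stays near 0 in every panel.

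Of the 39 members, 38 passed the filter on low values in every comparison (1 TPM or more in at least 3 libraries). The exception was Isg15, the ubiquitin-like modifier that gives its name to the ISG15 conjugation system. It was listed at 0 in 11 of the 32 libraries and reached 1.25 TPM at most, although Usp18 and Herc6, which remove and attach it, were at 3 TPM or more in all libraries. Isg15 was not tested. The counting and annotation are not given, so its low values need not mean low expression.

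Tumor cells had the highest levels of these genes at week 2 and the lowest at week 4. Between those weeks, 36 of the 38 tested members fell and none rose (limma on log2(TPM + 1), adjusted p under 0.05 over all tested genes). For 36 members, all 4 libraries of week 4 lay below all 3 of week 2. Across all 14770 tested genes, 17.1% fell and 29.2% rose (23.7% and 23.4% after median-of-ratios rescaling), and 17.3% had such non-overlapping lower values. The median difference was -2.04 on the log2 scale for the members and 0.11 for all tested genes. Of the falls, 29 were at least 2-fold and 20 at least 4-fold. The summed level of the members went from 2189 to 3936 TPM at week 2 to 1585 to 2332 at week 3 and 687 to 1034 at week 4. In bulk samples, fewer cells of a type and less RNA per cell cannot be told apart.

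All 3 transcription factors fell. Irf7, which amplifies interferon production, stood at 292, 215 and 66.1 TPM in the week 2 libraries, 81.5, 64.5, 93.8 and 56.1 at week 3 and 23.5, 26.8, 22.8 and 21.8 at week 4. The week 2 libraries were spread widely, with replicate 3 near the level of week 3, while the 4 libraries of week 4 lay close together and below all others. The log2 difference of week 4 from week 2 was -2.71 ± 0.40 (SE) for Irf7 (limma adjusted p = 3.14e-04), -1.80 ± 0.27 for Stat2 and -0.61 ± 0.17 for Irf9. Irf9, the DNA-binding partner of the complex, had the smallest difference of the 3, from 75.5 ± 9.34 (SD, n = 3) to 49.6 ± 9.61 TPM (SD, n = 4).

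The cytosolic RNA sensors fell by less than most members. Ddx58, which encodes RIG-I, was at 103, 108 and 101 TPM at week 2, 125, 86.5, 116 and 96.7 at week 3 and 74.3, 69.1, 72.5 and 50.2 at week 4. Weeks 2 and 3 overlapped, and every week 4 library was lower than both. Ifih1, which encodes MDA5, was at 47.9, 40.8 and 25.3, then 29.4, 25.5, 30.5 and 23.6, then 22.1, 20.3, 16.9 and 17.3 TPM in the same weeks. Log2 differences of week 4 from week 2 were -0.91 ± 0.19 for Ifih1, -0.65 ± 0.15 for Ddx58 and -0.57 ± 0.18 for Dhx58, a regulator of both. All 3 passed the test, with a median of -0.65.

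The IFIT genes, whose products bind foreign RNA and block its translation, had the largest falls as a family, with a median log2 difference of -3.20. Ifit1 was at 90.9, 128 and 33.96 TPM at week 2, 32.8, 29.6, 26.9 and 18.6 at week 3 and 9.35, 10.2, 9.22 and 7.86 at week 4. The ranges of its 3 weeks did not overlap. Ifit3b, the member that fell most, was at 46.96, 56.6 and 11.5 TPM at week 2, 13.3, 16.1, 12.7 and 6.73 at week 3 and 1.46, 2.44, 1.07 and 0.769 at week 4. Its week 2 replicate 3 lay within the range of week 3, and all of week 4 lay below. The log2 difference of week 4 from week 2 was -3.79 ± 0.48 for Ifit3b (limma adjusted p = 1.25e-04), -3.52 ± 0.37 for Ifit3, -2.88 ± 0.36 for Ifit1 and -2.06 ± 0.25 for Ifit2.

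All 7 members of the OAS family, enzymes or enzyme-like proteins that answer double-stranded RNA, fell between weeks 2 and 4, with a median of -2.03. Oasl2, the most abundant of them in tumor cells, was at 177, 146 and 84.2 TPM at week 2, 144, 86.97, 117 and 90.03 at week 3 and 51.2, 54.4, 41.96 and 31.4 at week 4. Its first 2 weeks overlapped and week 4 was below both. Oasl1, a mouse brake on Irf7 translation, was at 52.7, 29.7 and 13.3 TPM, then 21.7, 16.6, 14.6 and 12.6, then 4.39, 8.06, 1.94 and 3.16. It had the largest log2 difference of the family, -2.54 ± 0.44, and Oas1b the smallest, -1.33 ± 0.22. Oas1b and Mx2 are annotated as polymorphic pseudogenes, intact in some mouse strains only, and the strain is not given.

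The Mx genes encode dynamin-like GTPases that trap viral particles. Mx1 was at 29.9, 39.01 and 12.2 TPM at week 2, 14.9, 9.68, 11.9 and 7.69 at week 3 and 2.41, 4.12, 0.781 and 2.21 at week 4, and Mx2 at 45.9, 62.5 and 19.2, then 19.96, 14.8, 19.7 and 12.9, then 5.04, 6.45, 4.23 and 4.78. For both genes week 4 lay below every earlier library and replicate 3 of week 2 lay within the range of week 3. Their log2 differences of week 4 from week 2 were -3.004 ± 0.41 and -2.69 ± 0.32. Usp18, which removes ISG15 from proteins and restrains the interferon receptor, was at 83.4, 81.9 and 29.3 TPM at week 2, 25.8, 26.6, 27.9 and 19.7 at week 3 and 4.01, 4.33, 3.46 and 3.85 at week 4. Its libraries separated by week, and its log2 difference was -3.60 ± 0.30 (limma adjusted p = 1.31e-05). Herc6, the mouse ISG15 ligase, fell too (-2.16 ± 0.20).

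The PARP genes, which attach ADP-ribose to proteins, and Dtx3l, the ubiquitin ligase partner of Parp9, had smaller differences, with a median of -1.04. Parp12 was at 97.7, 84.4 and 64.5 TPM at week 2, 82.1, 59.9, 72.996 and 66.4 at week 3 and 40.3, 47.5, 32.5 and 25.97 at week 4. Parp14 was at 57.8, 48.2 and 36.6 TPM, then 45.4, 31.9, 38.9 and 33.97, then 19.2, 21.6, 18.04 and 14.6. For both, weeks 2 and 3 overlapped and week 4 was lower. Dtx3l did not pass the test, at -0.38 ± 0.19 (95% interval -0.79 to 0.03), but passed it after both rescalings, at -0.53 and -0.54.

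Among enzymes acting on nucleic acids and translation, all 5 fell. Zbp1, a sensor of Z-form nucleic acid that can trigger cell death, was at 145, 162 and 123 TPM at week 2, 124, 77.4, 112 and 81.5 at week 3 and 48.5, 46.4, 37.4 and 28.7 at week 4. Rsad2, which makes a nucleotide that stops viral polymerases, was at 74.6, 82.8 and 25.7 TPM, then 31.3, 22.1, 23.5 and 14.8, then 6.17, 9.70, 4.20 and 5.59. Both had their lowest values in week 4, and replicate 3 of week 2 was for each the lowest of that week. The log2 difference was -2.95 ± 0.39 for Rsad2, -2.16 ± 0.30 for its neighbour Cmpk2, -1.83 ± 0.21 for Zbp1, -1.25 ± 0.12 for the exonuclease gene Isg20, and -0.87 ± 0.12 for Eif2ak2, which encodes the kinase PKR.

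Of the 8 other effectors, 7 fell. Bst2, whose product tetherin holds virions at the cell surface, was the most abundant member, at 1116, 1166 and 576 TPM at week 2, 584, 447, 561 and 348 at week 3 and 198, 198, 150.3 and 121 at week 4. Replicate 3 of week 2 was within the range of week 3. Trim30a was at 84.8, 87.6 and 53.3 TPM, then 40.8, 31.9, 47.9 and 31.7, then 15.2, 13.3, 9.34 and 6.52, with no overlap between weeks. Log2 differences of week 4 from week 2 were -2.68 ± 0.27 for Trim30a, -2.47 ± 0.27 for Bst2, and between -2.39 and -0.79 for Ifi44, Xaf1, Samd9l, Rtp4 and Ifi35. The exception was Epsti1, at 52.1, 15.3 and 18.8 TPM at week 2 and 24.5, 17.9, 10.3 and 11.7 at week 4, with a log2 difference of -0.67 ± 0.43 that did not pass the test.

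The fall came over both steps of the time course. The mean level of 35 members decreased at each step. From week 2 to week 3, 14 members fell, with all of week 3 below week 2 for 13 of the 38. Across all tested genes 4.01% fell and 5.64% were so separated (9.85% fell and 12.9% rose after median-of-ratios rescaling, against 20.1% that rose before it). The median difference was -0.74 for the members and 0.14 for all genes. The members that fell were Ifit1 (-1.44 ± 0.36), Ifit3 (-1.44 ± 0.37), Ifi44, Rsad2, Usp18, Mx2, Trim30a, Oas1a, Bst2, Xaf1, Herc6, Oas1g, Samd9l and Eif2ak2 (-0.55 ± 0.12), while Ifit3b (-1.36 ± 0.48), Irf7 (-1.14 ± 0.40) and Mx1 (-1.11 ± 0.41) did not pass. The count was 0 without week 2 replicate 2, 22 without week 2 replicate 3 and 6 without week 3 replicate 4. It was 25 after median-of-ratios rescaling, which moved the median of all genes to -0.02.

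From week 3 to week 4, 32 members fell and none rose (8.19% and 5.53% of all genes), with a median of -1.27 against -0.02 for all genes. For 34 members all of week 4 lay below week 3. Among all tested genes 15.9% were so separated. The largest falls were those of Ifit3b (-2.43 ± 0.44), Usp18 (-2.40 ± 0.28) and Ifit3 (-2.09 ± 0.35). The sensors Ifih1 and Dhx58, together with Irf9, Dtx3l, Eif2ak2 and Epsti1, did not pass. Steps 1 and 2 share the week 3 libraries. The first step made up a median of 38.0% of the whole log2 fall over the 36 members that fell, with a range of -2.01% to 63.4%. For the 2 uncalled members, it came to -30.9% (Dtx3l) and 137% (Epsti1) of their whole difference. No member's second step was called different from its first (limma adjusted p under 0.05 for 2.30% of all genes, 6 members at an unadjusted p under 0.05). On simulated data this test recovered only 39% of genes changed 2-fold, so it cannot show that the steps were alike. The second step was the lower for 34 of the 38 members, with a median difference of -0.51 against -0.18 for all genes.

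**Figure D2:**
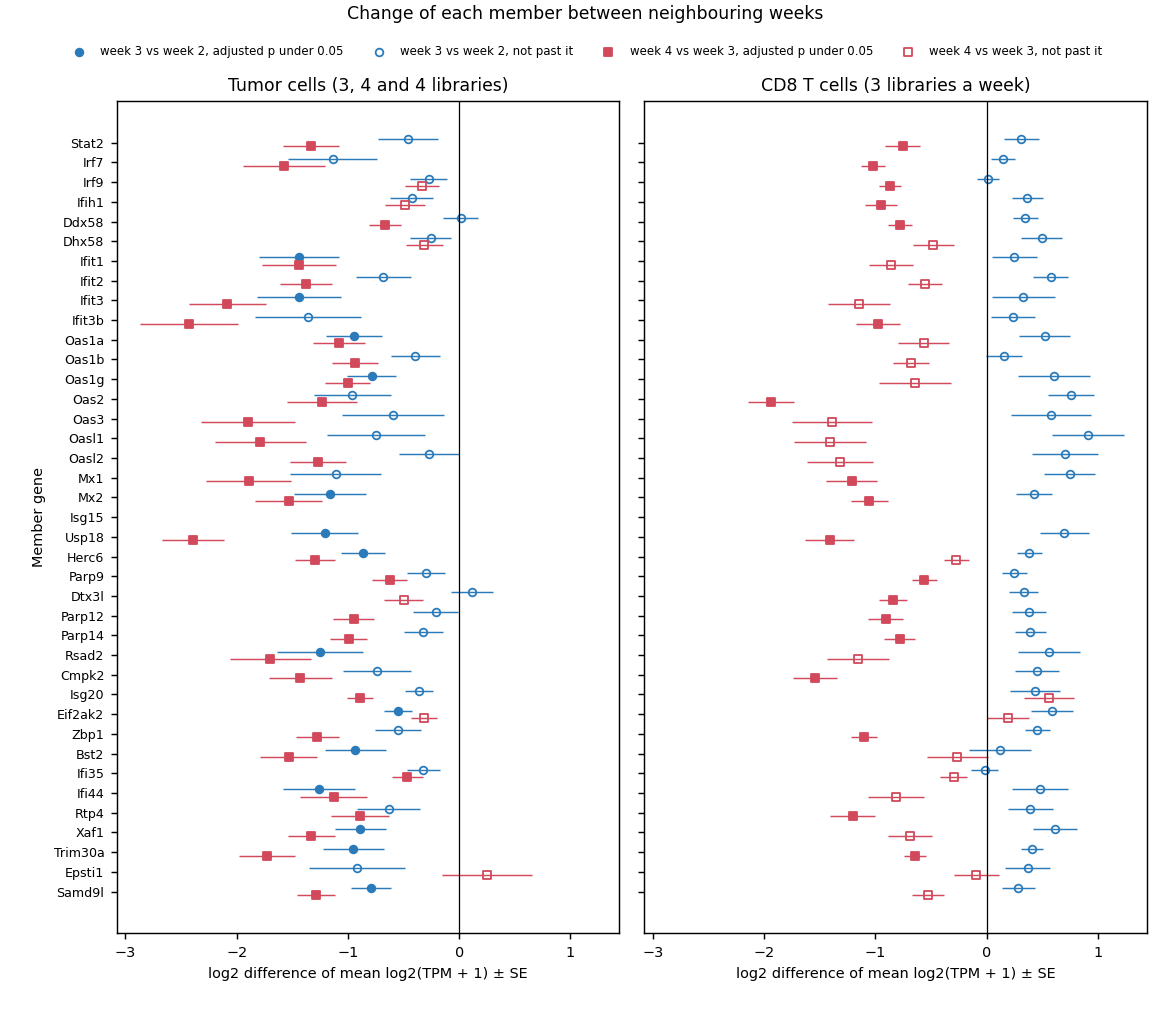
Log2 difference of mean log2(TPM + 1) ± SE for each member from week 2 to 3 (blue circles) and from week 3 to 4 (red squares), in tumor cells (left) and CD8 T cells (right), filled where the adjusted p was under 0.05. In tumor cells both sets lie mostly left of 0, while in CD8 T cells the first step lies right of 0 and the second left of it.

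Other cell types' markers also moved in the tumor cell libraries between weeks 2 and 4. Of 6 T cell markers 5 fell, with their summed level at 62.3 to 218 TPM in week 2 and 17.2 to 36.2 in week 4. All 4 B cell markers fell (summed level 24.2 to 147 TPM in week 2, 0.613 to 7.28 in week 4), with Ms4a1 listed at 0 in some week 4 libraries. All 4 endothelial markers fell (64.2 to 182 TPM in week 2, 12.6 to 22.8 in week 4), as did the 3 tested of 4 plasmacytoid dendritic cell markers (4.61 to 13.03 and 0.479 to 1.23 TPM). One of 7 macrophage and monocyte markers fell (182 to 934 and 70.5 to 486 TPM, overlapping), and epithelial markers were at 1016 to 1344 and 1710.4 to 2100.1 TPM, with 4 of 6 higher and 1 lower. Of 4 fibroblast markers 1 fell, with a summed level of 1532 to 5632 TPM in week 2, 755 to 3599 in week 3 and 1049 to 3092 in week 4. In replicates 1, 2 and 3 of week 2 the fibroblast sum was 4499, 5632 and 1532 TPM, the leukocyte sum 361, 69.9 and 119 and the member sum 3847, 3936 and 2189. There the fibroblast sum ordered the libraries as the member sum did, and the leukocyte sum did not. In the 4 replicates of week 4 the fibroblast sum was 1049, 2229.9, 1815 and 3092 TPM, the leukocyte sum 96.2, 99.3, 16.03 and 38.4 and the member sum 1011, 1034, 845 and 687, where the library with the highest fibroblast sum had the lowest member sum. The part of these cells in the result was not tested.

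CD8 T cells followed another course: the members were highest at week 3 and lowest at week 4. The mean level of 35 of the 38 tested members was highest at week 3, and that of 32 was lowest at week 4. The summed level was 1356 to 1489 TPM at week 2, 1629 to 1832 at week 3 and 985 to 1260.0 at week 4. From week 3 to week 4, 18 members fell and none rose, where 1.29% of all 13350 tested genes fell and 1.38% rose (1.28% and 2.42% after median-of-ratios rescaling). All week 4 libraries lay below all of week 3 for 33 members and for 22.4% of all genes. The median was -0.83 for the members and -0.13 for all genes, and -0.72 and -0.02 after that rescaling. The count was 10 without week 3 replicate 1, 5 without week 3 replicate 3 and 7 without week 4 replicate 3. With replicate number fitted as a block, all 18 lost the call.

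The largest of these falls were those of Oas2, Cmpk2 and Usp18. Oas2, an oligoadenylate synthetase that activates RNase L, was at 6.46, 4.996 and 4.12 TPM in CD8 T cells of week 2, 10.2, 9.62 and 8.28 at week 3 and 1.82, 2.17 and 1.21 at week 4. Its 3 weeks did not overlap, with the highest values in week 3, and its log2 difference of week 4 from week 3 was -1.94 ± 0.20 (limma adjusted p = 0.00513). Zbp1 was at 93.9, 80.7 and 78.8 TPM, then 115, 124 and 109, then 57.1, 56.5 and 47.4, again with no overlap. The log2 difference was -1.10 ± 0.11 for Zbp1, -1.54 ± 0.20 for Cmpk2 and -1.41 ± 0.22 for Usp18, which stood at 15.5, 12.2 and 13.3, then 24.3, 23.6 and 20.3, then 11.8, 6.04 and 6.87 TPM.

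All 3 transcription factors fell in this step. Irf7 was at 113, 105 and 98.9 TPM at week 2, 121, 129.5 and 102 at week 3 and 56.2, 58.02 and 57.2 at week 4. Weeks 2 and 3 overlapped, and the 3 libraries of week 4 lay within 2 TPM of each other and far below. Log2 differences of week 4 from week 3 were -1.02 ± 0.11 for Irf7, -0.87 ± 0.10 for Irf9 and -0.75 ± 0.16 for Stat2. The sensors Ifih1 (-0.95 ± 0.14) and Ddx58 (-0.78 ± 0.11) fell as well. Ddx58 was at 63.9, 61.6 and 57.97 TPM, then 82.02, 81.2 and 71.6, then 40.8, 49.997 and 45.04, and Ifih1 at 12.5, 12.5 and 10.2, then 15.2, 17.5 and 13.6, then 7.08, 7.87 and 7.43, both highest at week 3 in every library.

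Both Mx genes fell from week 3 to week 4, with log2 differences of -1.21 ± 0.23 and -1.06 ± 0.17. Mx1 was at 13.3, 10.9 and 14.6 TPM at week 2, 22.4, 23.7 and 20.7 at week 3 and 13.7, 6.90 and 7.66 at week 4, so that its first week 4 library overlapped week 2. Mx2 was at 13.8, 9.39 and 11.96 TPM, then 16.4, 16.6 and 14.8, then 8.37, 6.70 and 6.48, with no overlap of weeks. All 4 PARP and DTX3L genes fell, between -0.91 and -0.56. Parp12 was at 14.1, 16.4 and 12.5 TPM, then 17.998, 22.6 and 16.7, then 10.03, 8.92 and 9.94, and Parp14 at 46.3, 42.1 and 34.7, then 49.6, 60.1 and 52.3, then 29.7, 34.98 and 28.4. Both were highest at week 3. Trim30a was at 91.01, 78.5 and 77.95, then 111, 107 and 112, then 74.7, 69.6 and 65.2 TPM, and fell (-0.65 ± 0.10).

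The IFIT and OAS families passed the test in only 2 cases, Ifit3b (-0.98 ± 0.20) and Oas2. Ifit3 (-1.15 ± 0.28), Oasl1 (-1.41 ± 0.32) and Oas3 (-1.39 ± 0.36) had differences of similar size with larger errors. Ifit3b was at 2.95, 2.84 and 3.63 TPM at week 2, 4.48, 4.41 and 2.88 at week 3 and 1.58, 1.21 and 1.64 at week 4, with week 4 below both. Ifit1 was at 9.49, 10.1 and 9.94, then 11.7, 13.8 and 10.4, then 7.04, 4.24 and 7.53 TPM, and Oasl2 at 7.41, 13.7 and 8.80, then 15.6, 22.6 and 12.3, then 6.71, 7.67 and 4.03. Oasl1 was at 1.29, 3.07 and 2.81, then 4.23, 8.32 and 3.84, then 1.31, 1.91 and 0.884 TPM and Rsad2 at 3.77, 4.75 and 4.41, then 5.68, 10.4 and 5.28, then 3.78, 1.68 and 2.37. For each of them the week 3 libraries lay above those of week 4, at levels of 1 to 23 TPM.

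From week 2 to week 3, no member of CD8 T cells passed the test. At an unadjusted p under 0.05 there were 20 members, and over all genes 6 passed, or 0.0449%. The means of 37 of the 38 were higher at week 3, with a median of 0.40 against 0.10 for all genes (0.30 and 0.01 after median-of-ratios rescaling). For 25 members all of week 3 lay above week 2, as for 15.2% of all genes. The largest differences were those of Oasl1 (0.91 ± 0.32), Oas2 (0.76 ± 0.20), Mx1 (0.75 ± 0.23) and Usp18 (0.70 ± 0.22), with Trim30a at 0.41 ± 0.10. The second step differed from the first for Oas2 (-2.69 ± 0.35, limma adjusted p = 0.0471) and Zbp1 (-1.56 ± 0.20, limma adjusted p = 0.0402), where 0.0599% of all genes did so with the same sign. That count was 0 without any 1 of the 9 libraries, save week 2 replicate 1, and 0 after both rescalings.

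Over the whole course, from week 2 to week 4, 12 members fell in CD8 T cells and 2 rose, where 7.18% and 10.3% of all genes did. All week 4 libraries lay below week 2 for 18 members and above it for 2 (16.5% and 20.6% of all genes), and the median was -0.48 against -0.01. The falls ranged from Oas2 (-1.18 ± 0.20) and Cmpk2 (-1.09 ± 0.20) to Ddx58 (-0.43 ± 0.11), and included Irf7 (-0.87 ± 0.11) and Irf9 (-0.86 ± 0.10), while Mx1 (-0.47 ± 0.23) and Usp18 (-0.71 ± 0.22) did not pass. The genes that rose were Isg20 and Eif2ak2. Isg20 was at 19.4, 15.7 and 24.3 TPM at week 2, 30.4, 27.5 and 22.8 at week 3 and 51.5, 41.96 and 29.2 at week 4, and Eif2ak2 at 8.55, 8.87 and 10.9, then 17.1, 15.6 and 11.7, then 20.2, 17.4 and 13.6. For both, every week 4 library was above every week 2 library, with log2 differences of 0.99 ± 0.23 and 0.78 ± 0.19. The number of calls was 5 and 7 without week 2 replicates 1 and 2, 9 and 7 without week 4 replicates 2 and 3, and neither rise passed in those fits. It was also 7 with only the 2 groups fitted, and 7 with replicate number fitted as a block.

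Plasmacytoid dendritic cell markers varied widely among the CD8 T cell libraries of week 4. Their sum was 223 TPM in replicate 2, 23.7 in replicate 3 and 122 in replicate 4, and 68.6 to 118 in week 2. Bst2, which these cells carry at high level in mice, followed the same order at week 4, with 221, 96.3 and 112 TPM, against 123, 146 and 179.6 at week 2 and 151, 174 and 158 at week 3. Samd9l, the most abundant member in CD8 T cells of the time course, did not follow it, at 144, 195 and 159 TPM in week 4, against 233, 191 and 165 and 237, 232 and 243 in weeks 2 and 3. Of the 4 markers 1 fell between weeks 2 and 4, and none of the 4 B cell, 7 macrophage or 3 leukocyte markers changed. The part of these cells in the member differences was not tested.

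The difference between the cell types was itself tested over the 20 time course libraries. The change from week 2 to week 4 was lower in tumor cells than in CD8 T cells for 27 members and higher for none, where 16.3% of all 15831 genes were lower and 21.6% higher. The median was -1.71 for members and 0.08 for all genes. The largest differences between the changes were those of Ifit3b (-3.05 ± 0.58), Usp18 (-2.89 ± 0.41), Ifit3 (-2.71 ± 0.51) and Mx1 (-2.54 ± 0.52). All 4 IFIT genes, both Mx genes and all 5 nucleic acid and translation genes were among the 27, and none of the 3 RNA sensors was. Isg20 (-2.25 ± 0.26) and Eif2ak2 (-1.65 ± 0.22) had opposite changes in the 2 cell types. Oas2, which fell in both, did not pass (-1.02 ± 0.44, 95% interval -1.94 to -0.10).

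**Figure D3:**
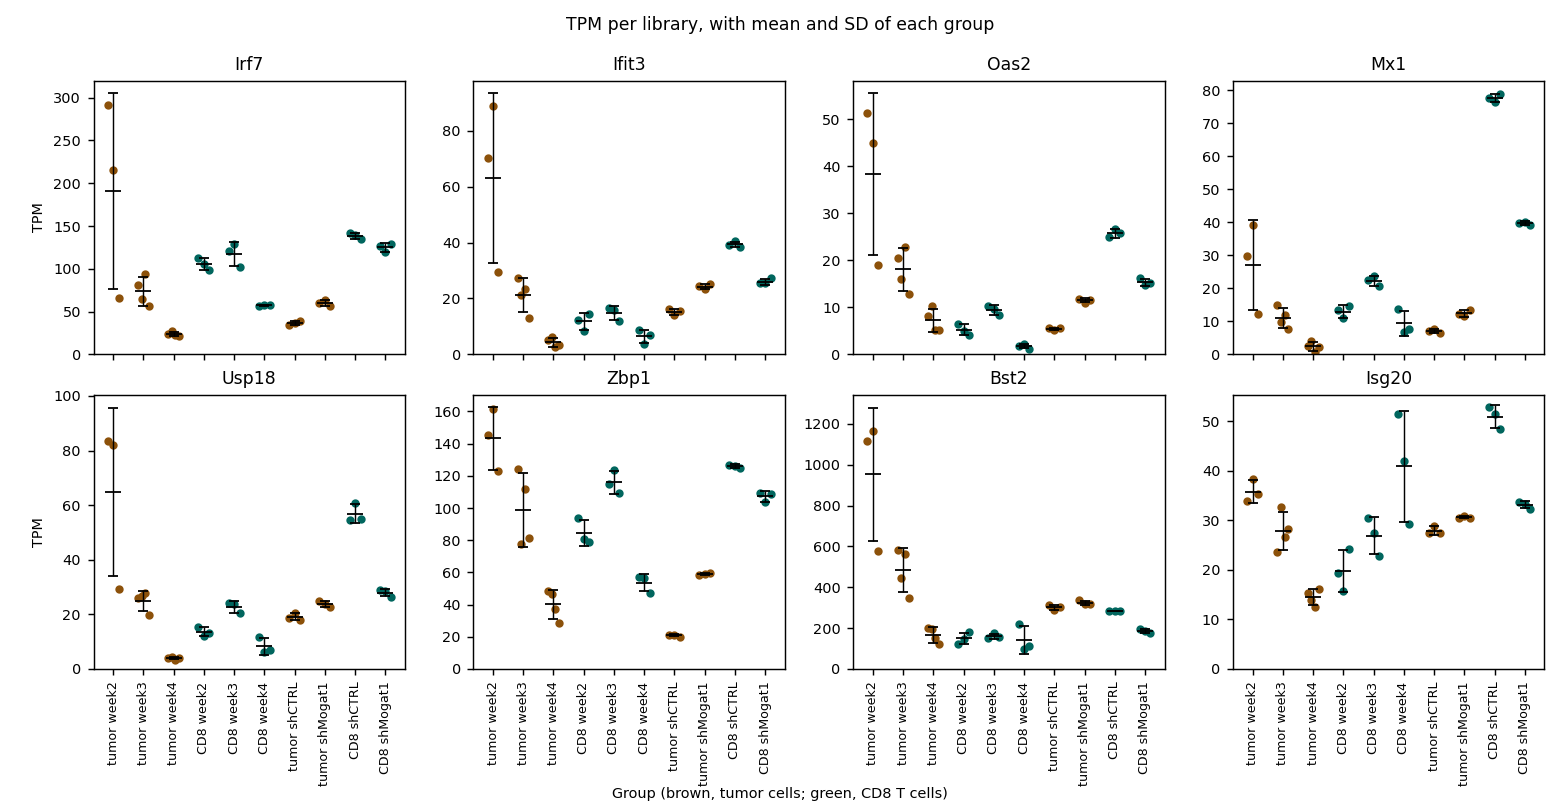
TPM of 8 members in every library (points; brown, tumor cells; green, CD8 T cells) with the mean and SD of each group, on linear axes that start at 0. In tumor cells the levels drop over the weeks for all 8, while the green points of week 3 lie above those of week 4 for Oas2, Usp18 and Zbp1, and the mean of Isg20 is highest at week 4.

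Mogat1, the targeted gene, encodes an acyltransferase of fat synthesis. It was listed at 0 in all 3 tumor cell libraries labelled shCTRL and at 0.624, 0.146 and 0.531 TPM in those labelled shMogat1. This goes against the label, but all these values were under the filter of 1 TPM and Mogat1 was not tested. In tumor cells of weeks 2, 3 and 4, Mogat1 was at 1.02 to 3.87, 4.46 to 9.37 and 35.8 to 39.6 TPM. In CD8 T cells it was at 0.208, 0.286 and 0.211 TPM in shCTRL libraries and 0.515, 0.577 and 0.208 in shMogat1 libraries. Directions in the hairpin set therefore follow the labels as given. The tumor cell identity of the hairpin libraries is also in doubt. Those labelled shCTRL had epithelial Krt8 at 1.57, 1.46 and 1.31 TPM, against 41.7, 36.4 and 40.8 in libraries labelled shMogat1. Fibroblast Dcn was at 2735, 2748 and 2764 against 570.0, 571 and 577 TPM, and the mean of Pdgfra at 294 against 244. Means of Col1a1 (72.9 against 99.2 TPM) and Col1a2 (24.2 against 74.8), also fibroblast markers, went the other way. Libraries labelled shMogat1 had mean Epcam at 29.6 and Krt8 at 39.7 TPM, against 305 and 366 in tumor cells of week 2. A difference between these groups cannot be told apart from a difference in the kind of cell sequenced. The members were higher in tumor cells labelled shMogat1 than in those labelled shCTRL. Of the 38 tested, 36 rose and none fell, and for 36 all shMogat1 libraries lay above all shCTRL libraries. Among all 12936 tested genes 34.6% rose and 19.9% fell (26.2% and 26.5% after median-of-ratios rescaling), and 39.7% lay wholly above. The median difference was 0.60 for members and 0.07 for all genes, or 0.53 and 0.01 after that rescaling. Of the rises, 3 were at least 2-fold. The summed level was 970.3 to 986 TPM in shCTRL and 1321 to 1330.5 in shMogat1 libraries. Replicates lay close together, with a median SD of the members' log2 values of 0.0712 and 0.0546, against 0.298 to 0.443 in tumor cells of the time course.

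Zbp1 rose most, from 21.2, 21.3 and 20.2 TPM in shCTRL to 58.4, 59.2 and 59.5 in shMogat1 libraries, with a log2 difference of 1.46 ± 0.03 (limma adjusted p = 4.43e-08). Rsad2 followed, from 6.07, 6.76 and 6.17 to 13.6, 15.6 and 14.7 TPM (1.09 ± 0.07). Mx2 went from 12.6, 14.2 and 12.3 to 28.3, 27.2 and 29.5 TPM (1.06 ± 0.06). In these 3 genes the groups lay far apart compared with their spread. Mx1 was at 6.99, 7.68 and 6.35 against 12.2, 11.5 and 13.5 TPM (0.74 ± 0.08) and Trim30a at 13.5, 12.6 and 11.8 against 23.5, 22.4 and 23.9 (0.83 ± 0.06).

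Among the factors, Irf7 was at 34.1, 36.2 and 38.8 TPM in shCTRL and 60.2, 63.6 and 56.5 in shMogat1 libraries (0.71 ± 0.06). Stat2 rose by 0.63 and Irf9 by 0.15. The sensors rose by 0.46 to 0.55, with Ddx58 at 26.6, 26.98 and 27.1 against 38.6, 37.2 and 36.6 TPM and Ifih1 at 10.8, 9.96 and 10.2 against 14.8, 15.8 and 15.1. All 4 IFIT and all 7 OAS genes rose. Ifit1 was at 18.7, 17.3 and 21.3 against 26.5, 24.7 and 26.2 TPM (0.42 ± 0.07) and Ifit3b at 8.46, 8.49 and 9.75 against 12.8, 12.5 and 13.7 (0.50 ± 0.07). Oasl2 was at 32.7, 37.1 and 36.1 against 59.9, 56.3 and 58.7 TPM (0.71 ± 0.05) and Oasl1 at 7.34, 6.19 and 7.89 against 12.9, 11.9 and 12.7 (0.73 ± 0.09). In none of these did the groups overlap.

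Usp18, Bst2 and Ifi44 fell strongly over the weeks and differed here by less than the member median of 0.60. Usp18 was at 18.8, 20.5 and 17.9 against 24.95, 23.8 and 22.7 TPM (0.31 ± 0.06) and Bst2 at 312, 289 and 305 against 336, 318 and 316 (0.10 ± 0.03). Ifi44 (-0.04 ± 0.07) and Epsti1 (0.06 ± 0.05) did not pass, and Epsti1 was at -0.011 and -0.028 after the 2 rescalings. Parp12 was at 47.2, 47.3 and 44.5 against 50.9, 53.9 and 55.98 TPM (0.21 ± 0.04) and Parp14 at 16.7, 16.4 and 16.9 against 26.1, 24.6 and 25.3 (0.58 ± 0.04). All rises below 0.25 were those of Irf9, Parp12, Eif2ak2, Isg20 and Bst2. The median of all genes moved by less than 0.1 with rescaling in this comparison.

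Marker levels of other cell types differed between the same tumor cell groups. Epithelial markers summed to 201 to 217 TPM in shCTRL and 936 to 977 in shMogat1 libraries, with all 5 tested of 6 higher in the latter. Krt18 alone made up most of both sums, with means of 203 and 860 TPM. Fibroblast markers summed to 3126 to 3158 and 982 to 998 TPM, with 2 of 4 higher and 2 lower. Leukocyte markers (17.4 to 18.2 and 41.9 to 43.6 TPM) and macrophage and monocyte markers (105 to 107 and 225 to 241) were higher for 3 of 3 and 7 of 7. T cell markers summed to 3.51 to 5.92 and 12.9 to 14.3 TPM, plasmacytoid dendritic cell markers to 0.361 to 0.639 and 1.83 to 2.09 TPM, with Ccr9, Klk1 and Cox6a2 each listed at 0 in 1 shCTRL library. The part of these cells in the rises was not tested.

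CD8 T cells of the hairpin set moved the other way. Of 38 tested members 26 fell and 2 rose in libraries labelled shMogat1, where 26.2% of all 13742 genes fell and 16.6% rose (21.9% and 21.5% after median-of-ratios rescaling). All shMogat1 libraries lay below all shCTRL libraries for 28 members and 32.8% of all genes, and above them for 1 member and 22.1%. The median was -0.31 for members and -0.05 for all genes. The summed level was 2056 to 2119 TPM in shCTRL and 1702 to 1739 in shMogat1 libraries. One fall reached 2-fold, that of Usp18.

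Usp18 was at 54.7, 60.8 and 55.1 TPM in shCTRL and 28.8, 28.5 and 26.4 in shMogat1 libraries, a log2 difference of -1.001 ± 0.06 (limma adjusted p = 1.01e-05). Mx1 was at 77.8, 76.4 and 78.96 against 39.8, 40.2 and 39.2 TPM (-0.95 ± 0.04) and Oas2 at 24.9, 26.8 and 25.7 against 16.2, 14.7 and 15.2 (-0.71 ± 0.06). The groups of all 3 were far apart, with shMogat1 lower. Bst2 was at 285, 282 and 283 against 193, 185 and 176 TPM (-0.61 ± 0.04) and Isg20, which rose over the weeks, at 52.8, 51.5 and 48.3 against 33.7, 33.4 and 32.3 (-0.60 ± 0.05). Mx2 was at 38.4, 39.5 and 39.1 against 26.7, 24.1 and 26.8 TPM (-0.58 ± 0.05).

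All 4 IFIT genes fell, with a median of -0.50. Ifit1 was at 20.2, 21.7 and 20.8 against 18.6, 18.6 and 16.9 TPM and Ifit3b at 11.7, 10.9 and 12.2 against 7.88, 7.11 and 7.20, with no overlap. Of 7 OAS genes 5 fell. Oasl2 was at 35.9, 34.4 and 33.1 against 24.6, 23.7 and 25.9 TPM (-0.46 ± 0.05) and Oasl1, which did not pass, at 11.8, 11.6 and 11.3 against 9.95, 10.9 and 7.85. Irf7 was at 142, 139 and 135 against 126, 119 and 129 TPM (-0.15 ± 0.04), Zbp1 at 127, 126 and 125 against 109, 103 and 109 (-0.23 ± 0.03) and Rsad2 at 16.4, 18.95 and 16.8 against 13.4, 12.96 and 14.01 (-0.34 ± 0.07). Ifih1 was at 20.2, 21.4 and 19.8 against 16.9, 17.2 and 18.98 TPM (-0.20 ± 0.06), and Ddx58, at 64.8, 63.4 and 61.3 against 57.8, 63.7 and 60.4, did not pass.

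The genes that rose were Samd9l and Irf9. Samd9l, which restrains cell growth and viral replication, was at 167, 189.6 and 181 TPM in shCTRL and 209, 207 and 217 in shMogat1 libraries (0.24 ± 0.05), with no overlap. Irf9 was at 70.6, 75.5 and 68.1 against 80.001, 75.2 and 82.7 TPM (0.15 ± 0.05, limma adjusted p = 0.0499), and its groups overlapped. Dtx3l, Parp9 and Parp14 were among the 10 that did not pass, whereas Parp12 fell, from 30.6, 31.7 and 29.5 to 25.1, 24.03 and 25.2 TPM (-0.29 ± 0.05). Parp14 was at 44.9, 49.2 and 48.2 against 49.4, 47.4 and 48.9 TPM and Trim30a, which also did not pass, at 84.2, 96.6 and 90.8 against 87.6, 84.01 and 84.8.

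Markers of plasmacytoid dendritic cells, which make and answer type I interferon, fell in the same CD8 T cell comparison. All 4 fell, and their sum was 91.3 to 94.1 TPM in shCTRL and 37.1 to 39.5 in shMogat1 libraries. Siglech was at 27.6, 29.5 and 27.6 against 4.42, 3.97 and 5.59 TPM. NK cell markers fell for 2 of 3 (70.1 to 77.4 and 50.5 to 53.8 TPM) and dendritic cell markers for 3 of 5 (26.8 to 29.5 and 19.7 to 20.6), while none of the 4 B cell markers changed. Eomes made up most of the NK cell sums, with means of 65.8 and 46.0 TPM. The means were 2.43 and 0.586 TPM for Ncr1 and 6.46 and 5.91 for Klrb1c, so the sums say little about NK cells. Epithelial markers were at 92.99 to 99.6 and 214 to 217 TPM and fibroblast markers at 1031 to 1048 and 478 to 506. None of these lists was at 0, and their part in the falls was not tested.

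**Figure D4:**
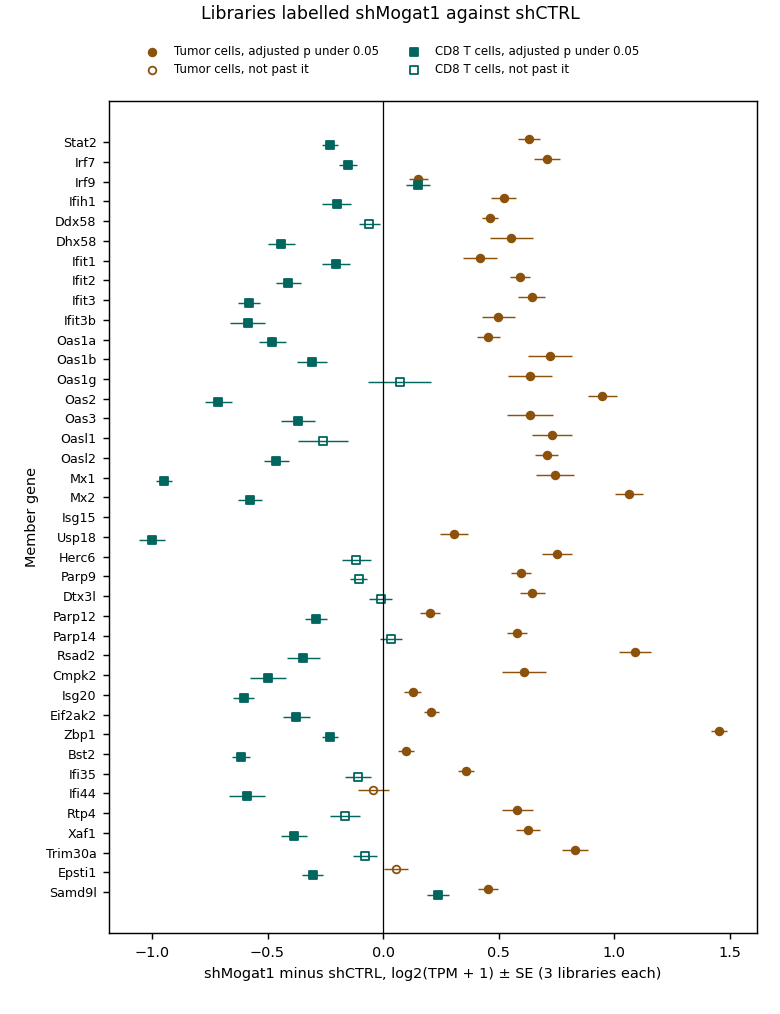
Log2 difference of mean log2(TPM + 1), shMogat1 minus shCTRL, ± SE for each member in tumor cells (brown circles) and CD8 T cells (green squares), 3 libraries a group, filled where the adjusted p was under 0.05. Brown symbols lie right of 0 for 37 members and green ones left of 0 for 34.

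Tested against each other over the 12 hairpin libraries, the tumor cell and CD8 T cell differences were unlike for 37 members, all more positive in tumor cells, where 36.2% of all 14602 genes were more positive and 13.1% more negative (28.1% and 18.4% after median-of-ratios rescaling, 23.02% and 22.7% after quantile normalization). The median was 0.86 for members and 0.17 for all genes. Mx1 (1.69 ± 0.09), Zbp1 (1.69 ± 0.04), Oas2 (1.66 ± 0.08) and Mx2 (1.64 ± 0.08) differed most. Irf9 did not pass, having risen by 0.15 in both cell types.

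The tumor cells' rank of members by change was not the same in the 2 experiments. Across the 38 members, the week 4 difference from week 2 and the shMogat1 difference from shCTRL, which share no libraries, had a Pearson r of -0.27 and a Spearman rho of -0.35. Between tumor cells and CD8 T cells the values were 0.35 and 0.37 for the weeks and 0.04 and 0.05 for the hairpin set. These correlations run across genes, which are not independent and share their libraries, and are given as descriptions.

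The rest of the interferon pathway was followed in a list of 46 other genes of ligands, receptors, signalling and sensing. In tumor cells from week 2 to week 4, 15 of the 39 tested fell and 3 rose, where 17.1% of all genes fell and 29.2% rose. Ifnb1, the interferon beta ligand, was at 7.48, 15.1 and 1.73 TPM at week 2, 1.04, 4.12, 2.41 and 1.82 at week 3 and 0.45, 0.229, 0.249 and 1.12 at week 4 (-2.29 ± 0.51). Its libraries had the same order as those of Ifit1 at week 2 only. At weeks 3 and 4 the library with the lowest Ifnb1 had the highest Ifit1. The brake Socs1 (-2.59 ± 0.32), the DNase Trex1 (-1.83 ± 0.27) and the DNA sensor gene Ifi204 (-2.03 ± 0.26) fell, and the adaptors Ticam1 (1.37 ± 0.18) and Mavs (0.88 ± 0.15) and the receptor Ifnlr1 (1.12 ± 0.17) rose.

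In CD8 T cells, 6 of 37 tested pathway genes fell and 4 rose from week 2 to week 4, where 7.18% of all genes fell and 10.3% rose. Ifng, the gamma interferon made by T cells, rose (2.54 ± 0.39), as did Irf8 (1.73 ± 0.38), a factor that plasmacytoid dendritic cells also carry. In the hairpin set, 16 of 35 tested pathway genes rose and 5 fell in tumor cells labelled shMogat1, where 34.6% and 19.9% of all genes did. Jak2 rose most (1.08 ± 0.04). In CD8 T cells, 14 of 37 rose and 6 fell, where 16.6% and 26.2% of all genes did. Irf8 (-1.19 ± 0.05) and Tlr7 (-0.61 ± 0.12) fell most among them, alongside the plasmacytoid dendritic cell markers.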

How the data were processed

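Total RNA was extracted with TRIZOL and sequenced as stranded mRNA libraries, per the labels' protocols. FastQC, Trim Galore, HISAT2 and build mm10 are named in the submitters' processing notes. The counter, annotation, gene lengths and read totals are not given in the sources used here. The authors deposited TPM values in 4 tables of 33681 rows, in which every library has the same total. The 27 rows whose gene names had become dates (at most 0.184% of TPM) were left out.

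Differences were tested with limma 3.58.1 (R 4.3.3) on log2(TPM + 1) over genes that reached 1 TPM in no fewer than 3 fitted libraries, with all groups of a table sharing 1 estimate of spread, Benjamini-Hochberg adjustment over all tested genes and a threshold of 0.05. Fold changes are on the log2(TPM + 1) scale, which understates those of low genes. Tumor cell and CD8 T cell tables were joined only to test differences between within-table differences. Levels across tables are descriptions. TPM carries no depth, so no counting intervals are given.

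The members and lists were chosen with earlier results of these data known. For each role, values in every library are given for the member with the highest mean and the member with the largest change in tumor cells from week 2 to week 4, along with the extremes and exceptions of each comparison. A list of 46 other pathway genes and 13 marker lists were followed. Some genes of these lists are not reported here. Whether replicate numbers pair the samples is not given, and correlations of same-numbered libraries could not settle it. The main tests were unpaired. Alternatives were a pseudocount of 0.1, no filter, median-of-ratios rescaling, quantile normalization, a replicate block, only the 2 groups compared and leaving out each library. On simulated data, the test of tumor cells at week 4 against week 2 covered 14638 genes. It recovered 72% of genes changed 2-fold and 93% of those changed 4-fold, with 6.25% of calls false. Few genes were changed there, none with low levels, and noise was independent between genes. Many more genes were called in the real data, so these rates need not hold for them. Figures were drawn with Python 3.11.15, pandas 2.3.3, numpy 2.4.6 and matplotlib 3.10.9.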

Additional observations from a re-analysis of the deposited data

Results flagged for a closer look

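The following results are given as values. Irf9 was at 35.2 TPM in replicate 4 of the tumor cells of week 4, apart from the other 3 libraries of that group at 55.3, 54.4 and 53.4 TPM; 76 such checks were made and 1 stood out, where chance gives about 1 in 20.

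The tumor cell and CD8 T cell changes from week 2 to week 4 differed by limma's test for 27 members. They did so by -3.05 for Ifit3b, -2.89 for Usp18, -2.71 for Ifit3 and -2.54 for Mx1 on the log2 scale. The shMogat1 differences from shCTRL differed between the cell types for 37 members, with 1.69 for Mx1, 1.69 for Zbp1, 1.66 for Oas2 and 1.64 for Mx2. Within CD8 T cells, the second weekly step differed from the first for 2 members, by -2.69 for Oas2 and -1.56 for Zbp1. Neither call held after either rescaling, and the count ranged from 0 to 2 when a library was left out.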

How the results depend on the processing

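Of 2940 values of single members under the alternatives, 2654 kept their direction and side of the threshold, 267 lost the call, 16 gained it and 3 changed sign: Bst2 in CD8 T cells from week 2 to week 4 (-0.14, and from -0.50 to 0.093 with 1 library left out, the latter without week 4 replicate 3) and Epsti1 in tumor cells of the hairpin set (-0.011 with median-of-ratios rescaling, -0.028 with quantile normalization). The 14 members past the threshold in tumor cells from week 2 to week 3 became 9 without a filter, 25 with median-of-ratios rescaling, 24 with quantile normalization and 8 with only the 2 groups, and ranged from 0 to 22 when 1 library was left out. In CD8 T cells, the 14 members from week 2 to week 4 became 7 with only the 2 groups and ranged from 5 to 15 with 1 library left out, and the 18 members from week 3 to week 4 ranged from 5 to 19. The 2 members whose CD8 T cell steps differed became 1 with a pseudocount of 0.1 and 0 without a filter or with either rescaling, and ranged from 0 to 2 with 1 library left out. In tumor cells that count was 0, and from 0 to 1 with 1 library left out. The cause was not tested. Replicate numbers are not stated to mark shared animals, and deviations of same-numbered libraries correlated between -0.263 and 0.233 in tumor cells and between -0.241 and 0.426 in CD8 T cells of the time course. With a replicate block, the counts were 35, 12 and 30 in tumor cells (week 4 against 2, 3 against 2, 4 against 3), 7, 0 and 0 in CD8 T cells (14, 0 and 18 without it, so that all 18 falls from week 3 to week 4 lost the call), 36 and 23 in the hairpin set, 0 and 0 for the differences between steps in tumor cells and CD8 T cells, and 27 and 37 for the differences between cell types. With 1 library left out, counts ranged over 35 to 36 for tumor cells from week 2 to week 4 and 26 to 33 from week 3 to week 4, 34 to 35 and 25 to 28 in the hairpin set, and 23 to 31 and 37 for the differences between cell types. Depth could not be read from TPM.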
